A study of Drosophila melanogaster with 4 samples.

Results

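KDM4A, a histone demethylase, was profiled on arm 3R, the right arm of chromosome 3 of Drosophila melanogaster and the longest of its assembled arms. The regions described are the rows of the authors' replicate-set list that lie on 3R and are marked as enriched: 1811 of 8653 enriched regions in all. They come from chromatin immunoprecipitation and sequencing (ChIP-seq) with the antibody Q2541 against JMJD2A/KDM4A, on head nuclei of mixed adult Oregon-R flies of wild-type genotype. There were 2 ChIP samples, replicates 1 and 2, and 2 inputs of the same source, 1 for each ChIP. All 4 samples share strain, stage and tissue, so there is no mutant or untreated group. The heads of many flies from population cages were pooled, and the cell types of the head were not separated. A list of regions holds no expression values, so neither the tissue nor the antibody's specificity was checked here.

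KDM4A belongs to the Jumonji family of enzymes, which remove methyl groups from lysines of histone H3. The fly protein is known to bind HP1a, the protein that reads methylated histone H3 in heterochromatin, the compact and repeat-rich chromatin around centromeres. The assembled sequence of 3R starts at its centromere side, so low coordinates lie near the pericentric heterochromatin and high coordinates near the telomere. Positions below are on FlyBase release 5, counted from 1. Without gene positions of the same release to set beside them, the regions carry positions in place of gene names.

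Only the 2 ChIP samples have values, and no label says that they came from separate fly collections. No test over samples could be made, and every comparison below is a description. Where no replicate is named, values are of the replicate-set list. Read depth behind the regions was not given. The score is the authors' own and its scale is not stated, so scores, their medians and the score limits used below describe the lists and are not folds. Scores of different lists may differ in scale.

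KDM4A-enriched regions were spread over the whole of 3R, about as densely as over the other large arms. The 1811 regions covered 6.02 Mb, which is 21.6% of the arm, against 21.3% of 2L, 2R, 3L and X combined. Replicate 1 had 1447 regions on 3R over 16.7% of the arm and replicate 2 had 1696 regions over 18.9%, a mean of 17.8 ± 1.60% (SD, n = 2). The other 4 large arms combined were covered over 16.5% in replicate 1 and 17.3% in replicate 2, a mean of 16.9 ± 0.617% (SD, n = 2). 3R was thus above these arms combined in both replicates, but nearly level in replicate 1. The same 2 replicates cover every arm, so the SD between them can hold shifts common to the arms. It does not measure a difference between arms. Taken singly, the means over the replicates were 20.5 ± 2.54% on 2R, 16.2 ± 1.50% on 2L, 16.1 ± 0.783% on 3L and 15.1 ± 2.28% on X (SD, n = 2 each). Within each replicate 2R was above 3R, with 18.7% in replicate 1 and 22.3% in replicate 2. Below 3R in both were 2L, with 15.2% and 17.3%, and 3L, with 15.5% and 16.6%. X was level with 3R in replicate 1, at 16.7%, and below it in replicate 2, at 13.5%. In the replicate-set list 3R held 64.9 regions per Mb, against 70.2 on the other arms. Replicate 1 gave 51.9 against 54.5 and replicate 2 gave 60.8 against 57.9, so the direction was not the same in both. The regions of 3R had a median width of 2221 bp, against 2155 bp on the other arms, with 2518 against 2404 bp in replicate 1 and 2231.5 against 2198 bp in replicate 2.

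**Figure D1:**
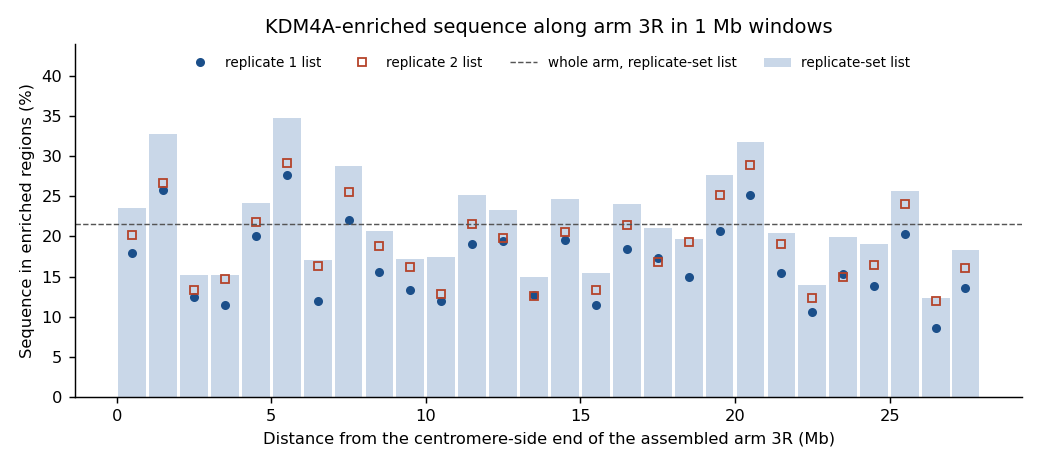
Percent of sequence in KDM4A-enriched regions (vertical axis) in 28 windows of 1 Mb along 3R, by distance in Mb from the centromere-side end (horizontal axis); bars are the replicate-set list, filled circles replicate 1, open squares replicate 2 and the dashed line the share over the whole arm, 21.6%. Coverage runs from 12.3 to 34.7% with the highest window 6th from the centromere side, and both replicates follow the bars.

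Along the arm, coverage went up and down in a way that both replicates shared. In windows of 1 Mb it ranged from 12.3 to 34.7%, with a median of 20.6% over 28 windows. The densest window lay at 5000001 to 6000000, with 34.7% covered by the replicate-set list, 27.7% by replicate 1 and 29.1% by replicate 2. The window at 1000001 to 2000000 was second, with 32.8%, 25.7% in replicate 1 and 26.7% in replicate 2. The third, at 20000001 to 21000000, had 31.8%, with 25.2% in replicate 1 and 28.9% in replicate 2. The same 3 windows were the densest in each replicate's own list. The emptiest windows lay at 26000001 to 27000000 with 12.3%, at 22000001 to 23000000 with 13.9% and at 13000001 to 14000000 with 14.9%. Replicate 1 covered these at 8.63%, 10.6% and 12.7%, and replicate 2 at 12.0%, 12.3% and 12.5%.

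Across the 28 windows the covered shares of the replicates correlated at 0.96 by Spearman's rho and 0.96 by Pearson's r. Windows are not independent, and they share mappability and base composition, so no p is given. The same rho was 0.97 on 2L, 0.93 on 2R, 0.93 on 3L and 0.84 on X. Replicate 2 covered more than replicate 1 in 25 of the 28 windows of 3R, and the median difference over all 28 was 2.52 percentage points, whereas on X replicate 1 covered more in 21 of 22 windows. Windows of high coverage held both more regions and more broad ones. Coverage followed the number of regions with a rho of 0.85 and the number of regions of at least 8 kb with a rho of 0.89 (n = 28 windows, all drawn from the same list). The covered share is the summed width of the regions in a window, so a link with both counts is built in. With the median score of a window, which does not enter the covered share, the rho was 0.17.

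Dense stretches were short. In windows of 100 kb the median covered share was 19.6%, with quartiles of 8.62 and 30.7% and a highest value of 71.7% over 279 windows. The share of a window and that of the next one correlated with a Pearson r of 0.18 on 3R, and with 0.26 on 2L, 0.13 on 2R, 0.25 on 3L and 0.26 on X. The longest runs of windows above the upper quartile spanned 500 kb. One, at 5200001 to 5700000, was covered over 46.6% and held 56 regions, 32 of them held by both replicates. The other, at 19700001 to 20200000, was covered over 45.6% and held 52 regions, 38 of them held by both. Replicate 1 covered these runs at 35.8% and 37.0%, and replicate 2 at 37.2% and 40.6%.

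The densest single window of 100 kb, at 5500001 to 5600000, lay inside the first of these runs, with 71.7% covered by the replicate-set list, 51.7% by replicate 1 and 64.8% by replicate 2. Next were 1400001 to 1500000 with 68.3%, 4800001 to 4900000 with 65.1% and 8200001 to 8300000 with 63.3%. The neighbouring windows at 11100001 to 11200000 and at 11000001 to 11100000 had 62.6% and 61.1%, and those at 1300001 to 1400000 and 14000001 to 14100000 had 61.7% and 61.2%. Which stretch ranked first depended on the list. In replicate 1 it was 1400001 to 1500000, covered over 62.5%, with 5500001 to 5600000 ranked 6th, whereas in replicate 2 it was 5500001 to 5600000. The window at 1300001 to 1400000 was covered over 36.5% in replicate 1 and 55.4% in replicate 2. It also depended on the window size: with windows of 50 kb it was 11150001 to 11200000, covered over 94.7%, and with windows of 250 kb it was 1250001 to 1500000, covered over 58.7%. The replicates differed most in the window at 21100001 to 21200000, where replicate 1 covered 2.72% and replicate 2 covered 27.1%. The largest difference the other way was smaller, with 26.6% in replicate 1 and 17.8% in replicate 2 at 14100001 to 14200000.

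Regions joined over gaps of at most 2 kb, a length chosen after the values were seen, formed chains. The longest chain of 3R ran over 74819 bp, at 1354187 to 1429005, and consisted of 17 regions, of which 8 were held by both replicates. Replicate 1 covered 54.2% of it and replicate 2 covered 71.7%. It was longer than the longest chain on any other large arm, which spanned 58161 bp on 2L, 60558 bp on 2R, 42192 bp on 3L and 45273 bp on X. A longest chain is a single extreme, and 3R is the longest of these arms. The median chain span was 2870 bp on 3R, against 2752 bp on 2L, 3079 bp on 2R, 2567 bp on 3L and 2640.5 bp on X. The next longest chains of 3R were 6 regions over 55719 bp at 11143410 to 11199128 and 6 over 55245 bp at 23739475 to 23794719. Most chains were single regions, 745 of 1125 on 3R, a share of 66.2% against 64.8 to 68.3% on the other arms.

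The 2 Mb at the centromere end of 3R were covered more than the rest of the arm, while on every other large arm the same length was covered less. The low-coordinate 2 Mb of 3R had a covered share of 28.1%, against 21.1% for the remainder of the arm, a ratio of 1.34. Replicate 1 gave 21.8% against 16.3% and replicate 2 gave 23.4% against 18.6%, a mean ratio of 1.30 ± 0.056 (SD, n = 2). The corresponding ratios in the replicate-set list were 0.71 on 2L, 0.69 on 2R, 0.35 on 3L and 0.49 on X, and all 4 were below 1 in each replicate's list too. Whether 3R differs from these arms was not tested, since 1 end of 1 arm is a single place. The ratio also depended on how much sequence was counted as proximal, with 1.09 for 1 Mb and 1.00 for 4 Mb. For 4 Mb it was 1.01 in replicate 1 and 0.99 in replicate 2. The other arms then had 0.94 on 2L, 0.94 on 2R, 0.62 on 3L and 0.77 on X, so that 3R was close to 2L and 2R.

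**Figure D2:**
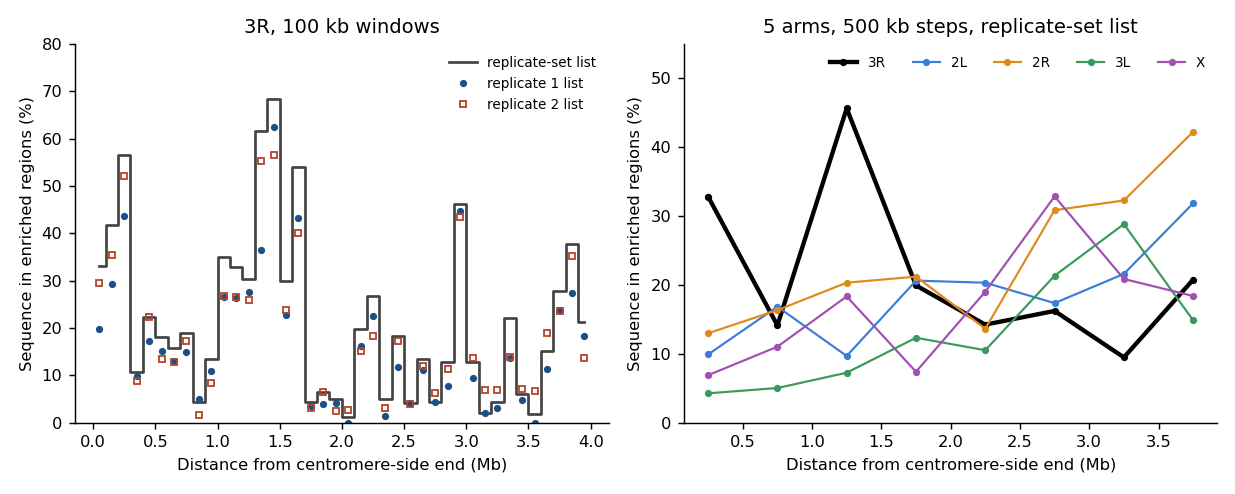
Percent of sequence in KDM4A-enriched regions (vertical axes) by distance in Mb from the centromere-side end (horizontal axes). The left panel gives the first 4 Mb of 3R in 100 kb windows (line: replicate-set list; circles: replicate 1; squares: replicate 2) with one high stretch at the very end and another between 1 and 1.7 Mb, and the right panel gives 500 kb steps of 5 arms, where 3R has 32.8% in the first step against 4.28 to 13.0% on the others.

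The excess lay in a pair of stretches. The first 300 kb of the arm, at 1 to 300000, were covered over 43.7%, with 30.9% in replicate 1 and 39.0% in replicate 2, and held 37 regions. Between 300001 and 1000000 coverage was only 14.8%, with 12.3% in replicate 1 and 12.1% in replicate 2. From 1000001 to 1700000 it was 44.6%, with 35.1% and 36.4% in replicates 1 and 2, over 87 regions, 9 of them at least 8 kb wide. The following 400 kb, at 1700001 to 2100000, formed the longest run of 100 kb windows below the lower quartile anywhere on the arm, with 4.26% covered, 2.95% in replicate 1 and 3.71% in replicate 2. The borders of these stretches were set after the profile was seen. The first 500 kb of 3R had 32.8%, against 9.92% on 2L, 13.0% on 2R, 4.28% on 3L and 6.91% on X. The separate heterochromatic scaffold 3RHet held 36 regions over 2.81% of its length, with 1.66% in replicate 1 and 3.70% in replicate 2, so that the high coverage of the 3R end was not seen in that scaffold. The share of either that sequencing reads can be mapped to was not measured.

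The 173 proximal regions were more numerous per Mb, 86.5 against 63.2 in the rest of the arm, with 67.0 against 50.7 in replicate 1 and 79.5 against 59.3 in replicate 2. They had a median width of 2210 bp and a median score of 0.59, and the rest of the arm had 2221 bp and 0.58. In replicate 1 the proximal regions had a median of 2689 bp against 2493 bp, and in replicate 2 of 2209 bp against 2239 bp. Both replicates held 97 of them (56.1%), against 924 of 1638 (56.4%) in the rest of 3R. The second of the high stretches held 87 of the 173 proximal regions. Of the highest-scored proximal regions, 4 of 5 lay in it: 1473344 to 1477820 (score 2.18), 1081247 to 1083854 (2.15), 1603607 to 1609111 (2.12) and 1196027 to 1204410 (2.07). The fifth lay at 636768 to 640199 (2.07), between the stretches. Each was held by both replicates, with scores of at least 2.19 in replicate 1 and 1.92 in replicate 2. The widest proximal regions were 19636 bp at 1284319 to 1303954, 17595 bp at 1478784 to 1496378 and 14973 bp at 219210 to 234182, also held by both.

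The outermost regions of the arm were not held by both replicates. The first region starts at the first base of the assembled arm, at 1 to 2590, with a score of 0.45, and was overlapped by replicate 1 but not by replicate 2. The last, at 27896211 to 27897236, is 1026 bp wide with a score of 0.78, and neither replicate list overlapped it. The region before it, 717 bp away, was held by both.

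Long stretches without any region were common. Gaps of at least 50 kb between neighbouring regions numbered 110 of 1807 on 3R (6.09%), against 5.16% of the gaps on all 5 large arms, and took up 31.1% of the arm against 29.0% of the other 4. That share was 41.3% against 39.7% in replicate 1 and 31.8% against 36.6% in replicate 2, where the direction turned. Taken singly in the replicate-set list, 2L had more than 3R, with 34.2%. The share was 30.0% on 3L, 28.6% on X and 22.5% on 2R. On 3R replicate 1 alone gave 128 such gaps and replicate 2 gave 102, a mean of 115 ± 18.4 (SD, n = 2). The longest, 204117 bp at 6242854 to 6446970, held no sequence of replicate 1 and 3245 bp of replicate 2. It followed directly on a region of 6764 bp, and the 100 kb before it were covered over 49.0%. The next were 191399 bp at 15885889 to 16077287, 156000 bp at 12979959 to 13135958 and 140962 bp at 19222981 to 19363942. Then came 137871 bp at 23592774 to 23730644, 126470 bp at 17965874 to 18092343, 126466 bp at 26443250 to 26569715 and 125739 bp at 8049339 to 8175077.

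Among these 8 gaps, the one at 23592774 to 23730644 was empty in both replicate lists, and shortly beyond it lay one of the widest regions of the arm, 26869 bp at 23739475 to 23766343. Beyond the high end of the gap at 8049339, the first 100 kb were covered over 61.4%. Of the 110 gaps, 48 held no whole region of either replicate, 7 held one of replicate 1 and 58 held one of replicate 2. All replicate 1 sequence in the gaps made up 0.167% of their length, and that of replicate 2 made up 1.82%. The gaps are defined on a list that is not independent of the replicates. Of the 279 windows of 100 kb, 6 were without any replicate-set region, at 6300001, 11500001, 13000001, 15900001, 20200001 and 23600001. Of these, 4 were empty in both replicates. The other arms had 8 empty windows of 230 on 2L, 4 of 211 on 2R, 14 of 245 on 3L and 4 of 224 on X.

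The replicates supported 3R about as often as other autosomal arms. Of the 1811 regions, 1021 (56.4%, 95% Wilson interval 54.1 to 58.6%) shared at least 1 bp with both replicate lists, against 52.4% in the replicate-set list of all sequences. Replicate 1 alone overlapped 246 (13.6%), replicate 2 alone 254 (14.0%), and neither overlapped 290 (16.0%), against 18.4% over all sequences. The share held by both was 56.9% on 2L, 55.5% on 2R, 53.1% on 3L and 47.2% on X. Counted by sequence, the regions held by both made up 79.3% of the covered length of 3R. That share was 75.4% over all sequences and 75.5% on the other 4 large arms combined. On 2L alone it was 79.4%, so 3R was level with 2L. The replicates had 3.64 Mb in common on 3R, which was 57.8% of what either covered, against 53.9 to 56.6% on the other arms. Intervals cover the counting of regions only, and neighbouring regions are not independent.

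**Figure D3:**
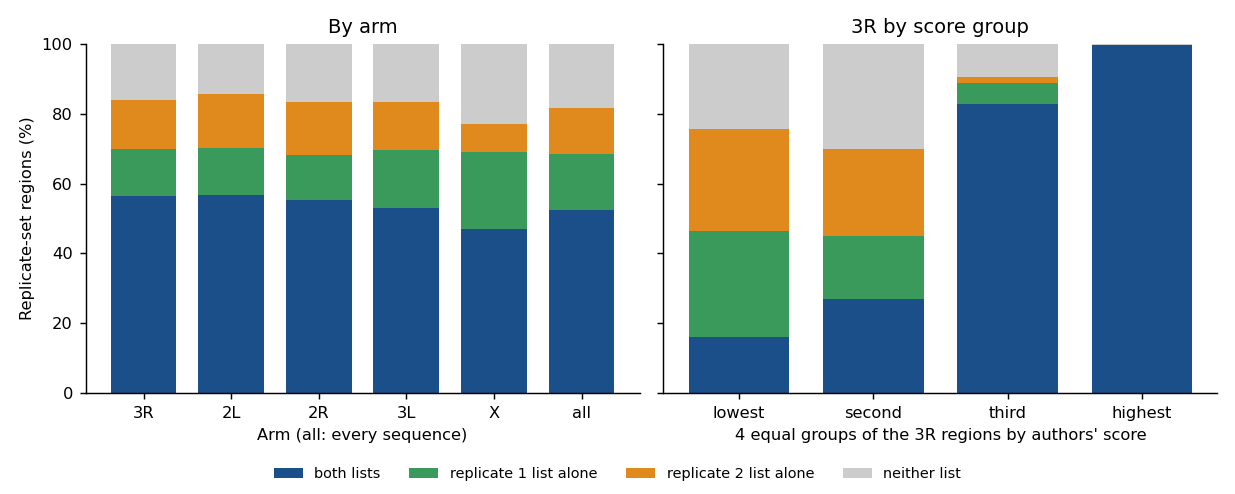
Percent of replicate-set regions (vertical axis) that are overlapped by at least 1 bp by both replicate lists, by 1 of them or by neither. The left panel sets 3R (56.4% held by both) beside the other large arms and all sequences, and the right panel splits the 3R regions into 4 groups of equal size by the authors' score, where the share held by both is 16.1%, 26.9%, 82.7% and 99.8% from the lowest to the highest group.

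Support went with score and width. With the 3R regions split by score into 4 groups of equal size, in the lowest group 16.1% were held by both replicates, in the second 26.9%, in the third 82.7% and in the highest 99.8%. Groups split by width gave 1.32%, 42.1%, 83.6% and 98.7%. Regions held by both had a median width of 3458 bp (quartiles 2372 and 5647 bp) and a median score of 1.09. Those held by neither had 1191 bp (quartiles 1091 and 1425 bp) and 0.46. The shortest region of either replicate list on 3R was 1301 bp wide, whereas 315 of the replicate-set regions were shorter than that, and of these 4 were held by both and 190 by neither. Strong and wide regions are likelier to be called in each replicate, and wide ones overlap more readily, so this grouping is tied to both measures.

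**Figure D4:**
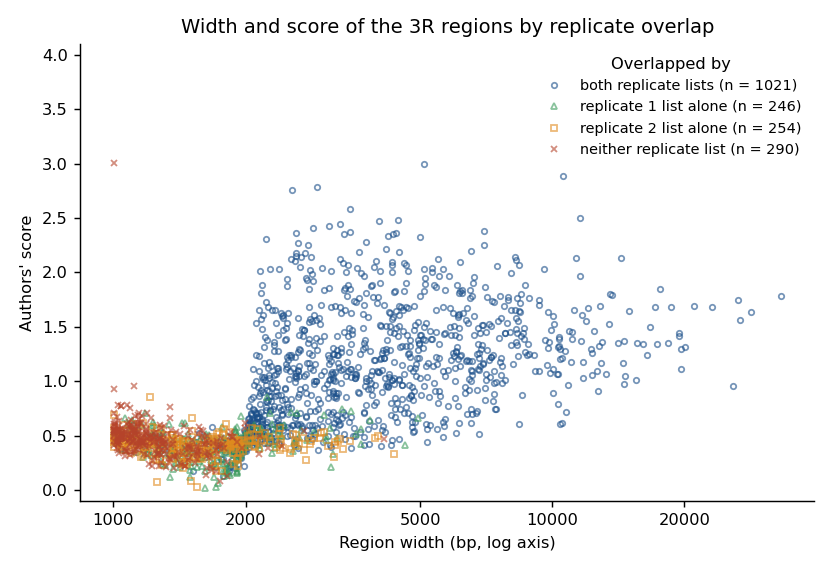
Width in bp (horizontal log axis) and authors' score (vertical axis) of the 1811 regions of 3R, marked by the replicate lists that overlap them. Scores of 1 or more appear almost only at widths of 2000 bp and over, apart from a single narrow region at a score of 3.00 that neither replicate list overlaps.

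A score of at least 1 was reached by 1 of 746 regions of 3R under 2000 bp (0.134%), by 235 of 622 from 2000 to under 4000 bp, by 232 of 320 from 4000 to under 8000 bp and by 112 of 123 from 8000 bp. On the other large arms 34 of 2793 regions under 2000 bp reached it (1.22%). In the 3 wider bands the shares were close, with 37.8%, 72.5% and 91.1% on 3R against 37.3%, 70.3% and 87.1% on the other large arms. These bands were chosen after the values were seen. Over all 3R regions width and score had a Spearman rho of 0.71, against 0.65 over all regions of the other large arms. Within the 3R regions held by both it was 0.54. Within those overlapped by replicate 1 alone it was 0.18 (n = 246), and by replicate 2 alone -0.04 (n = 254). Within those held by neither it was -0.45 (n = 290), so that there narrower regions tended to have higher scores. Membership of these groups is itself tied to width and score, and the cause of the differing values was not tested.

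Of the 10 highest-scored regions, 9 were held by both replicates. The top score of the arm, 3.00, belonged to a region of only 1002 bp at 27110284 to 27111285, which neither replicate list overlapped. The nearest region of replicate 1 was 24431 bp away and that of replicate 2 was 27346 bp away. Its score recurred, exactly as deposited, in 5 further regions on 2R, 3LHet and U, all 1119 bp wide or less and none overlapped by a replicate list. The reads behind it are not known, so whether its score rests on few reads was not tested. Scores that recur exactly in the list were found for 162 of the 290 3R regions held by neither replicate (55.9%), against 80 of the 1021 held by both (7.84%). The share was 23.1% over all 3R regions and 25.6% over all sequences. Among the 315 3R regions shorter than any replicate region it was 64.8%, and 190 of these were held by neither, so recurrence also went with narrow width. The highest-scored region held by both, and second on the arm, was one of 5099 bp at 13428466 to 13433564, with a score of 3.00, 3.40 in replicate 1 and 2.67 in replicate 2.

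Following it, a broad region of 10584 bp at 9622798 to 9633381 scored 2.88, with 3.23 in replicate 1 and 2.63 in replicate 2. The region at 22013007 to 22015917 scored 2.78 and was higher in replicate 2, with 3.11, than in replicate 1, with 2.76. The region at 22538681 to 22541236 scored 2.76, with 3.14 in replicate 1 and 2.25 in replicate 2. The others of the top 10 lay at 26425284 to 26428742 (score 2.58), 25864172 to 25875734 (2.50), 9484421 to 9488880 (2.48), 13542064 to 13546102 (2.47) and 12398376 to 12401650 (2.44). None of the top 10 lay in the proximal 2 Mb, where the highest score ranked 29th on the arm. The proximal 2 Mb held only 173 of the 1811 regions, so few of any 10 would be looked for there. After the top region, the highest-scored ones not held by both replicates lay at 24072469 to 24073583 (0.95), 23004675 to 23005675 (0.92), 26090123 to 26092366 (0.86, replicate 1 alone) and 17343510 to 17344719 (0.85, replicate 2 alone), far below the scores of the top 10.

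Broad regions of at least 8 kb were somewhat more frequent on 3R than over all sequences. They numbered 123 (6.79%), against 5.27% of the regions of all sequences, with 6.78% on 2L, 6.31% on 2R, 5.02% on 3L and 2.67% on X, so that 3R was close to 2L and 2R. Replicate 1 had 50 on 3R (3.46%) and replicate 2 had 81 (4.78%), against 2.29% and 3.85% on the other large arms combined. Taken singly, these arms had 3.26% and 4.67% on 2L, 2.78% and 4.82% on 2R, 1.89% and 4.46% on 3L, and 1.38% and 0.89% on X. In replicate 2 the share on 2R was thus slightly above that on 3R. In the replicate-set list the broad regions made up 24.99% of the covered sequence of 3R, against 25.3% on 2L and 19.0% on the other 4 large arms combined. Both replicates overlapped all 123, as they did all 326 broad regions of the other large arms. The median score of the broad 3R regions was 1.38, against 1.36 for those of the other large arms and 0.55 for the narrower regions of 3R. Of the 123, the 1 Mb window at 5000001 held 10 and that at 1000001 held 9, while the window at 26000001 held none.

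The widest regions were 33251 bp at 7032703 to 7065953, 28435 bp at 5380053 to 5408487, 26869 bp at 23739475 to 23766343 and 26583 bp at 11030501 to 11057083. After them came 25815 bp at 5901583 to 5927397, 23125 bp at 17840083 to 17863207, 21104 bp at 4863462 to 4884565 and 20127 bp at 20469831 to 20489957. Their scores ran from 0.95 to 1.79, against a median of 0.58 over all 3R regions, and each replicate covered at least 85.2% of every one. The replicates often split such regions. The one at 5380053 met 4 regions of replicate 1 and 5 of replicate 2, while the one at 7032703 met 3 of replicate 1 and a single one of replicate 2. Among the broad regions of 3R, 66.7% met several regions of replicate 1 and 59.3% several of replicate 2, against 67.8% and 57.7% on the other large arms.

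Where a region of one replicate matched exactly one of the other, the calls on 3R lay close together. There were 785 such pairs, and their edges were a median of 217 bp apart, against 204 to 246 bp on the other arms. The paired scores correlated at 0.77 by Spearman's rho and 0.81 by Pearson's r, against a rho of 0.66 to 0.74 on the other arms. Replicate 1 scored higher in 463 pairs (59.0%), and the median difference over all 785 pairs was 0.061, whereas on X it was 0.249. The largest differences toward replicate 1 were at 1995566 to 1997745, with 2.22 in replicate 1 and 0.98 in replicate 2, at 23432073 to 23435000, with 2.55 and 1.32, and at 17039437 to 17042275, with 2.21 and 1.01. Toward replicate 2 they were at 20339782 to 20341767, with 0.42 in replicate 1 and 1.505 in replicate 2, at 21962166 to 21964036, with 0.31 and 1.29, and at 12694123 to 12696025, with 0.36 and 1.32. The scales of the lists may differ, so the size of these differences is a description only.

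Some replicate regions did not enter the replicate-set list. On 3R 32 of 1447 regions of replicate 1 (2.21%) and 301 of 1696 of replicate 2 (17.7%) overlapped no replicate-set region, and the corresponding shares on the other large arms were 2.84% and 15.6%. On 3R these were narrow, with medians of 1415 bp in replicate 1 and 1486 bp in replicate 2, and none scored above 1.06 in replicate 1 or 1.32 in replicate 2. Of the 32 regions of replicate 1, 2 overlapped a region of replicate 2. Of the regions of replicate 1 on 3R, 82.0% overlapped one of replicate 2, and 69.9% the other way round. The other large arms combined had 76.9% and 71.3%, so the direction was not the same in both. 2L, with 81.8% and 69.4%, was close to 3R.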

How the data were processed

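The deposited files are lists of regions of significant enrichment with 1 score each, for 2 ChIP samples and for the replicate set. The submitters' processing notes list Bowtie 0.12.7, and the file headers give FlyBase release 5. How regions were called, at which threshold and whether replicates were pooled is not given in the sources used here. The score as deposited by the authors has no stated scale.

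From these lists, region counts, covered sequence, gaps and overlaps of at least 1 bp were computed with Python 3.11.15, numpy 2.4.6, pandas 2.3.3 and scipy 1.17.1, and tested base by base on 20 simulated lists. For covered shares, regions crossing a window border were cut there. For region counts and for median widths and scores of a window, run or stretch, each region was counted whole, by its midpoint. Windows were 100 kb or 1 Mb, without a last window shorter than 50% of the size. Wilson intervals at 95% cover counting only. The depth per sample is unknown.

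The named regions follow a rule: the 10 highest-scored and 8 widest regions, the 5 highest-scored and 3 widest proximal ones, the first and last, the 5 highest-scored not held by both replicates, the 8 longest gaps, the densest and emptiest windows and their longest runs, and the 3 largest score differences each way. The members and rules were chosen with earlier results of these data known. The single region of depletion, on X, was left out. The genes at hand carry release 6 positions and were not used.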

Additional observations from a re-analysis of the deposited data

How the results depend on the processing

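Leaving out 1 replicate means using the other's own list, and every alternative was planned. The covered share of 3R, 21.6% in the replicate-set list, was 17.1% with regions held by both replicates, 15.3% with the higher-scored 50% of regions, and 16.7 to 18.9% leaving out a replicate. Its ratio to the other large arms, 1.01, ran from 1.01 to 1.09 leaving out a replicate. The proximal ratio, 1.34, was 1.09 with 1 Mb and 1.00 with 4 Mb called proximal, and 1.26 to 1.34 leaving out a replicate. The median width, 2221 bp, was 3458 bp with regions held by both, 3976 bp with the higher-scored 50%, and 2231.5 to 2518 bp leaving out a replicate. The median score, 0.58, was 1.09, 1.21 and 0.95 to 1.02 in the same order. Of these, the value of the higher-scored 50% is high by construction, and scores of different lists may differ in scale. Gaps of at least 25 kb numbered 271 and of at least 100 kb 23, against 110 of at least 50 kb. The share held by both replicates, 56.4%, was 53.1% where each replicate had to cover at least 50% of a region and 94.4% in the higher-scored 50%. With replicate 2 left out, 70.0% overlapped replicate 1, and with replicate 1 left out, 70.4% overlapped replicate 2. The cause of the other changes was not tested. No paired analysis was possible because the inputs have no values of their own to set against the ChIP samples.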
